A study of Homo sapiens with 24 samples.

Results

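The genes described here are 43 interferon-stimulated and nucleic acid sensing genes, among 60605 genes counted in each library. They were taken from a list of gene symbols, each of which matched exactly 1 gene of the deposited files, and RIGI, formerly DDX58, was matched as RIGI. The list holds 10 nucleic acid sensors, 4 transcription factors, 4 genes of the IFIT family, 3 of the IFITM family, 14 other effectors and 8 genes of the ISG15 and ADP-ribose pathway. Of the 43, 29 had enough reads for the test across all genes, which held 15869 genes, and 14 did not.

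Cells that detect viral RNA or DNA in the cytosol secrete interferons, which act through receptors at the cell surface and a transcription factor complex that contains STAT2 and IRF9. That complex binds the interferon-stimulated response element (ISRE) in the promoters of its target genes, and factors of the IRF family bind the same kind of element. Many of the target genes encode antiviral proteins, and others encode the sensors themselves.

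RNA was measured in SBC-3 cells, an established line of human small cell lung cancer with the genotype label wild type, to ask how the paraspeckle components SFPQ, NONO and NEAT1 shape gene expression. SFPQ and NONO are RNA-binding proteins of the cell nucleus, and NEAT1 is the long noncoding RNA on which paraspeckles, a kind of nuclear body, assemble. Either siRNAs (small interfering RNAs) or ASOs (antisense oligonucleotides) were delivered at 10 nM by reverse transfection with Lipofectamine RNAiMAX, and poly(A)-selected RNA was taken after 72 h. In the siRNA arm, the control siCtrl stands beside a pair of siRNAs to SFPQ (siSFPQ-2, siSFPQ-3) and a pair to NONO (siNONO-3, siNONO-4). The ASO arm holds ASO-Ctrl, a control ASO, with ASO-NEAT1-1047 and ASO-NEAT1-1473 against NEAT1. Each of the 8 groups has 3 libraries and all 24 libraries, controls included, come from transfected cells. No untransfected and no interferon-treated group was analysed here. Whether the 3 libraries of a group are separate cultures is not in the labels, and p-values therefore measure only how far these samples spread, which may be technical.

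Total counts per library ran from 4243196 to 14886353, with siSFPQ-2 replicate 2 the shallowest. Levels are CPM, counts scaled to library size with TMM factors, and calls use a Benjamini-Hochberg adjusted p under 0.05 from the quasi-likelihood test of edgeR. SFPQ RNA fell by 2.51 in log2 terms (SE 0.09, adjusted p = 5.89e-19) after SFPQ knockdown and NONO RNA fell by 2.52 (SE 0.07, adjusted p = 5.11e-20) after NONO knockdown. NEAT1 was counted per gene in poly(A)-selected RNA, so its transcripts cannot be told apart. Any without a poly(A) tail may be missed. NEAT1 RNA was not called lower in the libraries labelled ASO-NEAT1-1047 and ASO-NEAT1-1473 (log2 fold change -0.26, SE 0.20, adjusted p = 1). With replicate numbers as a block, which pair this arm, NEAT1 changed by 0.03 with ASO-NEAT1-1047 (SE 0.19, adjusted p = 0.994) and by -0.50 with ASO-NEAT1-1473 (SE 0.19, unadjusted p = 0.0196, adjusted p = 0.899); its libraries were below the ASO-Ctrl library of the same number in 3 of 3 pairs. Of 12 neuroendocrine and epithelial markers, YAP1 (407 ± 40.0 CPM, SD, n = 3) and KRT8 (108 ± 11.1 CPM) were well represented in siCtrl. SYP had 17.2 CPM there, NEUROD1 4.62 and KRT18 0.0243. CHGA, a neuroendocrine marker, had 1 read in the 3 libraries together, and INSM1, NCAM1 and EPCAM had none. The 16 immune and stromal markers summed to between 11.3 and 16.9 CPM in siCtrl, 18.6 and 23.6 in siSFPQ-2, 15.1 and 21.6 in siSFPQ-3, 17.1 and 20 in siNONO-3 and 28.3 and 38.5 in siNONO-4. Most of that sum was COL1A1, and MS4A1, NCR1 and CLEC4C had no read in any of the 24 libraries. Between siCtrl and the siSFPQ groups LYZ and PECAM1 rose as well, from 0.119 ± 0.206 to 1.12 ± 0.872 and 0.928 ± 0.600 CPM and from 0.192 ± 0.167 to 0.511 ± 0.0143 and 1.33 ± 0.214 CPM, and their part in the results below was not tested. Mitochondrial genes took 7.628 to 9.066% of the counts in siCtrl and 9.588 to 11.558% in the siSFPQ libraries, and the part of that difference was not tested either. ITGAM had no read in siCtrl, 0.512 to 1.78 CPM in siSFPQ-2 and 0.239 to 0.602 in siSFPQ-3. Of the 6 neuroendocrine and epithelial markers tested, KRT8 (log2 fold change 1.96, from 108 CPM in siCtrl to 418 and 421 CPM), KRT18 (5.60, from 0.0243 to 1.43 and 2.86 CPM) and SYP (1.52) rose and NEUROD1, DLL3 and YAP1 fell after SFPQ knockdown (log2 -1.36, -1.91 and -0.29), and the part of these markers was not tested. In bulk RNA, fewer cells that express a gene and less of its RNA per cell cannot be told apart.

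Before any knockdown effect, the 43 genes spread over a wide range in siCtrl, from the most abundant mRNAs of the cell to none at all. Divided by exon length, the 5 highest were IFIT1 at 140 ± 10.2 CPM per kb (SD, n = 3), IFIT5 at 58.4 ± 4.06, IFIT2 at 58.0 ± 5.28, IFI44L at 32.4 ± 3.63 and EIF2AK2 at 22.8 ± 1.47. IFIT1 stood above 99% of the genes tested and IFIT5 above 96.7%. IFIT5 and IFIT2, neighbours in this order, did not differ beyond their spread (53.8 to 61.6 and 54.1 to 64.0 CPM per kb), and neither did IFIT3 and PARP14, both at 5.75 CPM per kb. At the other end OAS1, OAS2, OAS3 and RSAD2 had no read in siCtrl, although IFIT1 had 22427. RIGI, the cytosolic sensor of RNA with a triphosphate end, was low, at 0.0601 ± 0.0367 CPM per kb, and IFIH1, the sensor of long double-stranded RNA, stood at 0.521 ± 0.192. Exon lengths are those of the files, which add up the exons of all transcripts of a gene, so the order depends on them.

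**Figure D1:**
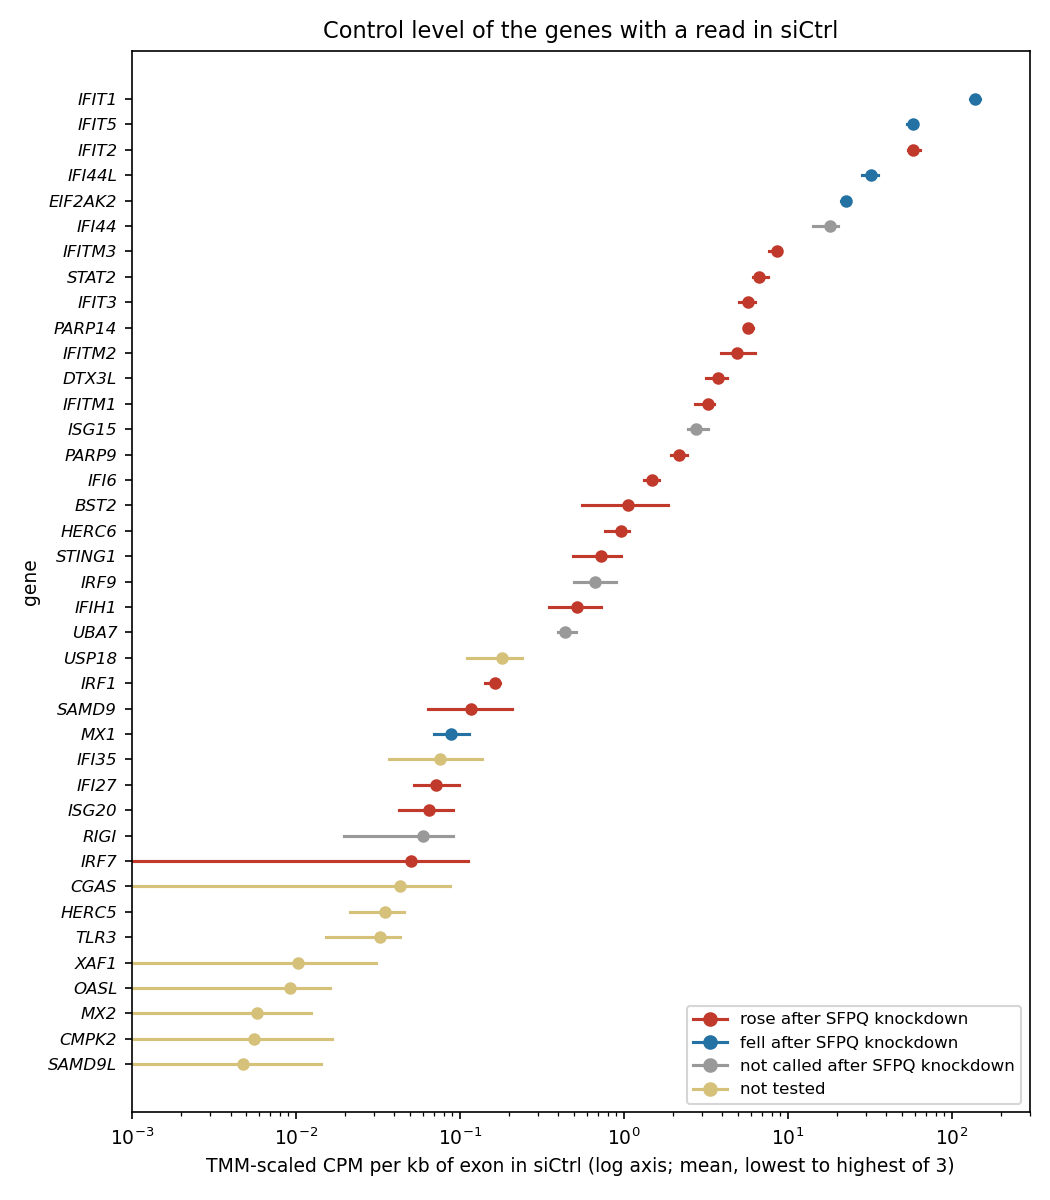
Level of each gene with a read in siCtrl, as TMM-scaled CPM per kb of exon on a log axis; points are means and lines run from the lowest to the highest of 3 libraries (a line that reaches the left edge includes a library at 0), coloured by the call after SFPQ knockdown. IFIT1, IFIT5, IFI44L and EIF2AK2, which fell, are among the 5 highest, and MX1, which also fell, stands at 0.0881 CPM per kb.

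SFPQ knockdown changed most of the genes tested, and not in 1 direction. With the 2 siRNAs averaged, 19 of the 29 rose and 5 fell. Over all genes tested 34.7% were called higher and 35.8% lower, so for the genes of the list the share that rose (65.5%) was above that background and the share that fell (17.2%) was below it. The median log2 fold change was 0.83 for the 29 genes and -0.02 for all genes. An unadjusted p under 0.05 in the edgeR test was found for 72.6% of all genes. Where groups are said below not to overlap, or to lie wholly above or below one another, the share of all genes for which this holds is not given. Lack of overlap therefore does not set a gene of the list apart. At least 2-fold, 13 rose and 3 fell, or 44.8% and 10.3%, beside 17.7% and 14.9% of all genes tested. IFI27, ISG20 and IRF7, all among the 19, reached the filter on low counts only through the siSFPQ libraries and so had to be higher there, a property they shared with 1128 of the 15869 genes. The calls were 19 up and 5 down with siSFPQ-2 alone, against 32.4% and 32.4% of all genes, and 18 up and 5 down with siSFPQ-3 alone, against 33.7% and 33.3%. The calls of the siRNAs differed for IFIH1 alone. With siSFPQ-3 the calls of MX1 and IFI44L were absent from DESeq2, that of IFI44L from edgeR with RLE factors, and that of PARP9 from edgeR with upper quartile factors. Without siSFPQ-2 replicate 2, the shallowest library, 19 rose and 5 fell. The 5 genes that fell were IFIT1, IFIT5, MX1, EIF2AK2 and IFI44L, and IFI44, ISG15, IRF9, RIGI and UBA7 were not called.

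**Figure D2:**
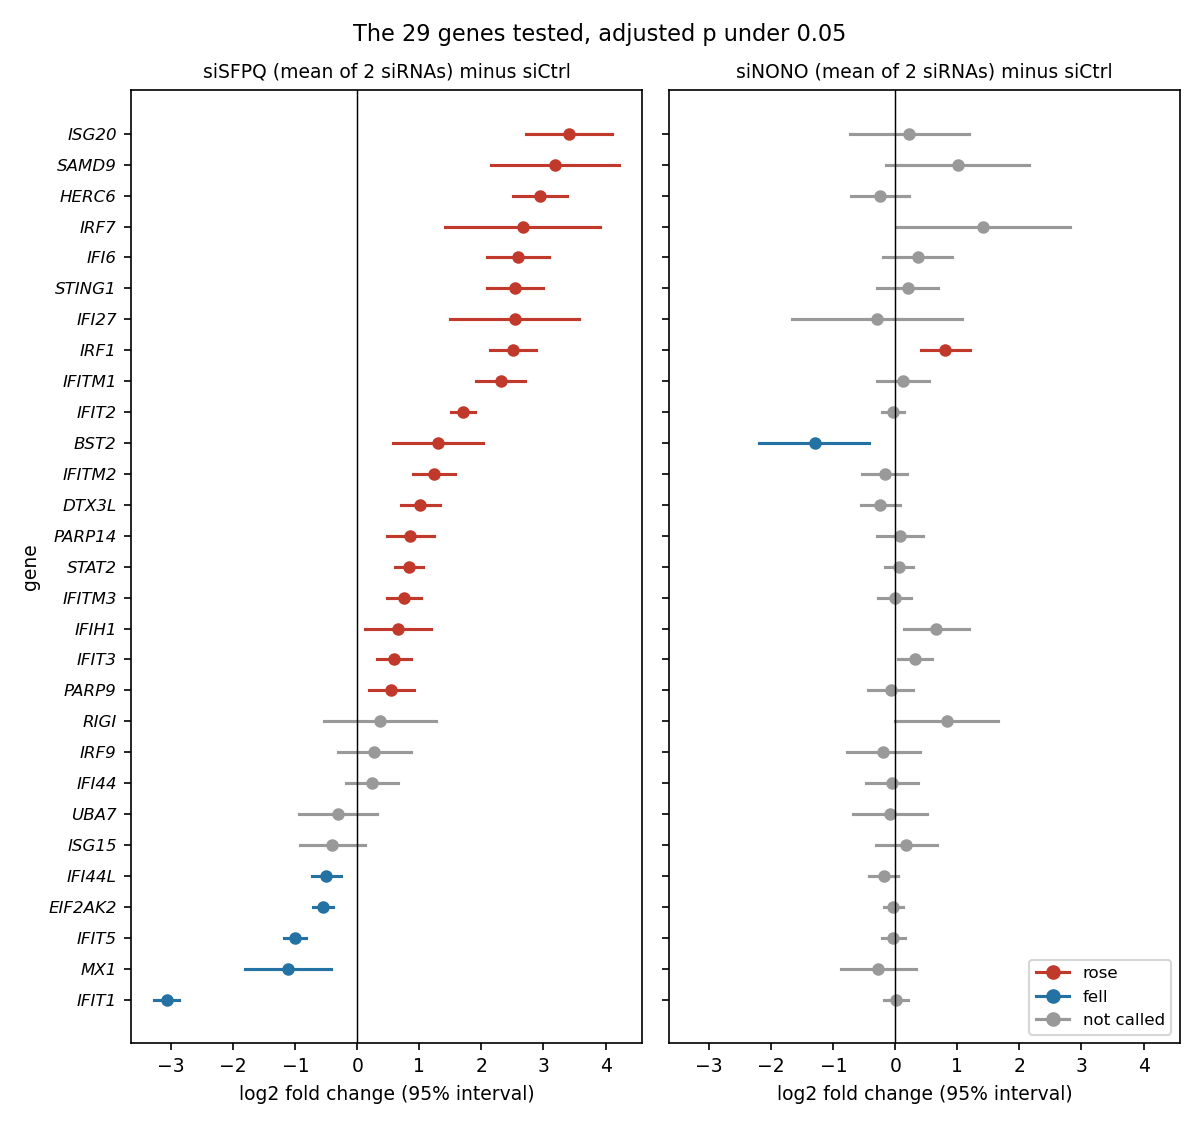
Log2 fold change with its 95% interval for the 29 genes tested, as the mean of both siRNAs minus siCtrl, for SFPQ on the left and NONO on the right, ordered by the SFPQ value. On the left 19 genes lie above 0 and 5 below with adjusted p under 0.05, and on the right IRF1 is the one called higher and BST2 the one called lower.

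Promoter sequence was looked at because an ISRE is what most of these genes are thought to share. RefSeq windows on GRCh38.p14, from 250 bases before to 50 bases after an annotated start, were available for 33 of the 43 genes (43 windows). They were searched on both strands for an ISRE-type motif, GAAANNGAAA (TTTCNNTTTC on the other strand), for the GAS-type motif TTCNNNGAA of interferon-gamma signalling, and for the NF-kB-type motif GGGANNTTCC. An ISRE-type match was found in 23 of the 33 genes (69.7%) and in 27 of their 43 windows (62.8%), against 3.57% of all 35116 windows. A GAS-type match was found in 10 of 33 genes and 25.6% of their windows, against 7.66% of all windows, and an NF-kB-type match in 3 of 33 genes and 6.98% of their windows, against 1.61%. ISRE-type matches were present in genes that moved either way: in 5 of the 5 that fell and in 12 of the 15 with a window that rose, the exceptions being STAT2, IRF1 and HERC6. Overlapping matches were counted separately, a match is no evidence of binding, and a window without one says only that these letters are not in it.

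Upstream sequence is shown for genes that fell (IFIT1, IFI44L) and genes that rose (IFIT3, IFI6, IFITM3, SAMD9, PARP14, IRF1), so that both kinds can be compared. Each is the longest stretch within the 200 bases before an annotated start that no exon of the deposited files covers, is written 5′ to 3′ on the gene's strand, and has in capitals the ISRE-type matches that lie wholly inside it. IFI44L has a further match, which begins 73 bases before its start. That match runs past the end of the stretch and is in lower case. The stretches are chr10:89392423-89392545 (plus strand), chr1:78620248-78620381 (plus), chr10:89327797-89327940 (plus, the more upstream of its 2 windows), chr1:27672213-27672392 (minus), chr11:320861-321060 (minus), chr7:93118024-93118179 (minus), chr3:122680639-122680838 (plus) and chr5:132490778-132490973 (minus).
IFIT1: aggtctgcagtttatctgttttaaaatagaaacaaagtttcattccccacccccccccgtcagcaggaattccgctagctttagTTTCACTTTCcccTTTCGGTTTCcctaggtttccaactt
IFI44L: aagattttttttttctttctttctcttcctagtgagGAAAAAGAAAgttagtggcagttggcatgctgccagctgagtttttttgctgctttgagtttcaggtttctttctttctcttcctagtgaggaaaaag
IFIT3: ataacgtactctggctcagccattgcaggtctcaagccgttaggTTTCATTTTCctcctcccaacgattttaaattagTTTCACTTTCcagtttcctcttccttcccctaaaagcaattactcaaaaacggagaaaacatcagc
IFI6: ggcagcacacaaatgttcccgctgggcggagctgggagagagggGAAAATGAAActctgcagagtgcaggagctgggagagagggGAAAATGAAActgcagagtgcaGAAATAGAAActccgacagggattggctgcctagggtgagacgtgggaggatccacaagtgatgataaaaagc
IFITM3: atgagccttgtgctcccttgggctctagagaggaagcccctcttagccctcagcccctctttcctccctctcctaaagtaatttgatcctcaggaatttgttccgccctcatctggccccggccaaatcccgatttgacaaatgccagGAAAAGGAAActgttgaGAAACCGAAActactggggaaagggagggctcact
SAMD9: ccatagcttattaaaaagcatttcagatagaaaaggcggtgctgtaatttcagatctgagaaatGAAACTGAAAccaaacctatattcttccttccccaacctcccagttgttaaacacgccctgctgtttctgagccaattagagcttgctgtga
PARP14: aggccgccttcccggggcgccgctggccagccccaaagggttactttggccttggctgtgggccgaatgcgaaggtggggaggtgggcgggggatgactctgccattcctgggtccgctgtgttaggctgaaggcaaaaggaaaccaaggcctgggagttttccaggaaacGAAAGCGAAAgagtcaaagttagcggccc
IRF1: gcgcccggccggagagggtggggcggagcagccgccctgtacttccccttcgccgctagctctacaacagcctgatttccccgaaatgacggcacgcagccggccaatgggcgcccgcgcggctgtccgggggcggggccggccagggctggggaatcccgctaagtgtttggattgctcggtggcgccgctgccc
IFIT1 and IFIT3, which moved in opposite directions, each hold a pair of matches, and TTTCACTTTC occurs in both. IFI6 holds 3 matches before its start. The IRF1 stretch holds no ISRE-type match but a GAS-type one, TTCCCCGAA, whose first base lies 124 bases before the start. IFIT5, which fell, has 3 ISRE-type matches that begin 45, 19 and 4 bases before its start (TTTCGGTTTC, TTTCGATTTC and TTTCAGTTTC), where the gene LIPA begins on the other strand. PARP9 and DTX3L, divergent genes that both rose, share a single match at chr3:122564332-122564341, which reads GAAACTGAAA on the DTX3L strand and begins 6 bases before the DTX3L start and 41 bases before a PARP9 start.

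The IFIT genes, whose products bind viral RNA or form complexes that do, split into a falling and a rising pair. Of all genes 35.8% were called lower and 34.7% higher. IFIT1 binds RNA whose cap lacks the methylation of host mRNA. Its level was 596, 689 and 657 CPM in the siCtrl libraries, 78.9, 97.5 and 82.6 in siSFPQ-2 and 77.2, 59.5 and 69.5 in siSFPQ-3. All 6 knockdown libraries lay far below the lowest control, and IFIT1 fell by 3.08 in log2 terms (SE 0.10, adjusted p = 6.48e-20), or 8.43-fold. IFIT5 stood at 235, 269 and 261 CPM in siCtrl, 121, 127 and 149 in siSFPQ-2 and 119, 117 and 127 in siSFPQ-3. The groups again did not overlap, and IFIT5 fell by 1.01 (SE 0.09, adjusted p = 8.63e-11).

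IFIT2, a partner of IFIT1 and IFIT3 in those complexes, moved the other way. It had 241, 234 and 277 CPM in siCtrl, 883, 828 and 898 in siSFPQ-2 and 747, 791 and 753 in siSFPQ-3, and rose by 1.70 in log2 terms (SE 0.09, adjusted p = 3.26e-15). IFIT3 went from 25.6, 32.1 and 29.7 CPM to 36.1, 43.4 and 58.1 with siSFPQ-2 and 42.2, 35.0 and 47.0 with siSFPQ-3, and rose by 0.59 (SE 0.13, adjusted p = 2.92e-04). For both genes every knockdown library was above every siCtrl library. Per kb of exon the most abundant IFIT mRNA was IFIT1 in siCtrl, at 140 CPM per kb against 58.0 for IFIT2, and IFIT2 after SFPQ knockdown, at 201 and 177 CPM per kb against 18.7 and 14.9 for IFIT1.

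**Figure D3:**
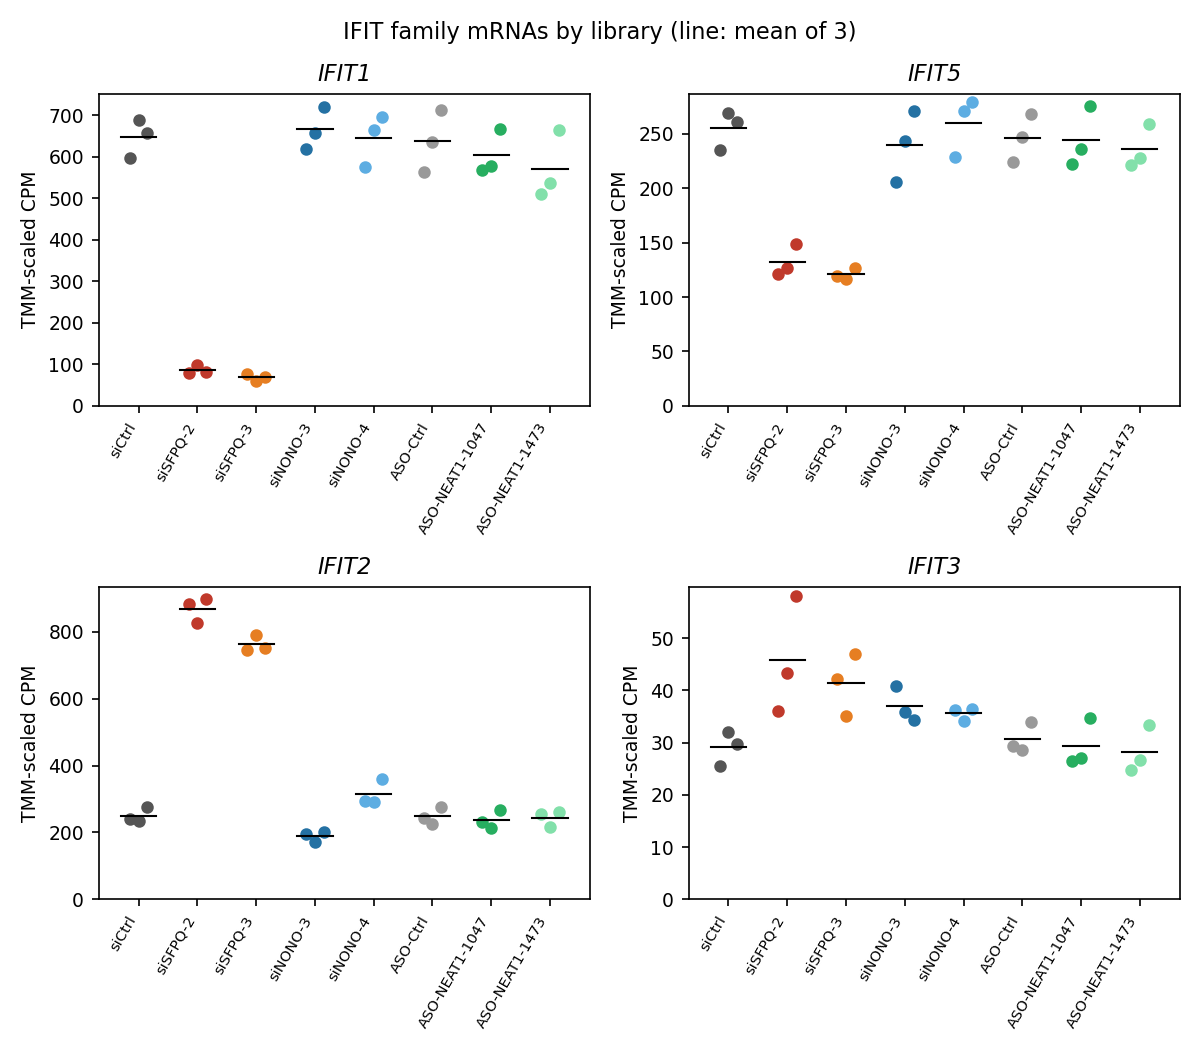
TMM-scaled CPM of IFIT1, IFIT5, IFIT2 and IFIT3 in each of the 24 libraries by group, with points for libraries and a line at the mean of 3. The 6 siSFPQ libraries are the lowest for IFIT1 (59.5 to 97.5 CPM) and IFIT5 and the highest for IFIT2 (747 to 898 CPM), while IFIT1 lies between 574 and 719 CPM in the siNONO libraries.

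These 4 genes lie near one another on chromosome 10 and are transcribed in the same direction (hg38, as in the files): IFIT2 from 89283694 to 89309271, IFIT3 from 89327307 to 89377473, IFIT1 from 89392546 to 89406487 and IFIT5 from 89414568 to 89421605. Genes that were not tested were not looked for between them. The rising pair is thus upstream and the falling pair downstream. The gene LIPA, which encodes a lysosomal lipase, runs on the opposite strand from 89414557 back to 89213569 and so spans IFIT2, IFIT3 and IFIT1. LIPA went from 3577 CPM in siCtrl to 1076 and 794 in siSFPQ-2 and siSFPQ-3, and fell by 1.95 in log2 terms (SE 0.07, adjusted p = 1.12e-18). Its exons overlap 94 exonic bases of IFIT3 and, together with those of another gene, 589 of IFIT2 (13.6%), and none of IFIT1 or IFIT5. Whether the counting used strand is not given in the sources used here, so reads from those shared bases cannot be told apart. The same holds for reads from LIPA introns in the IFIT1 interval, whose part was not tested. PANK1, the next gene tested beyond IFIT5, fell by 1.24 (SE 0.16, adjusted p = 4.39e-07). LIPA and PANK1 were looked up because of their position, after the IFIT values were seen.

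**Figure D4:**
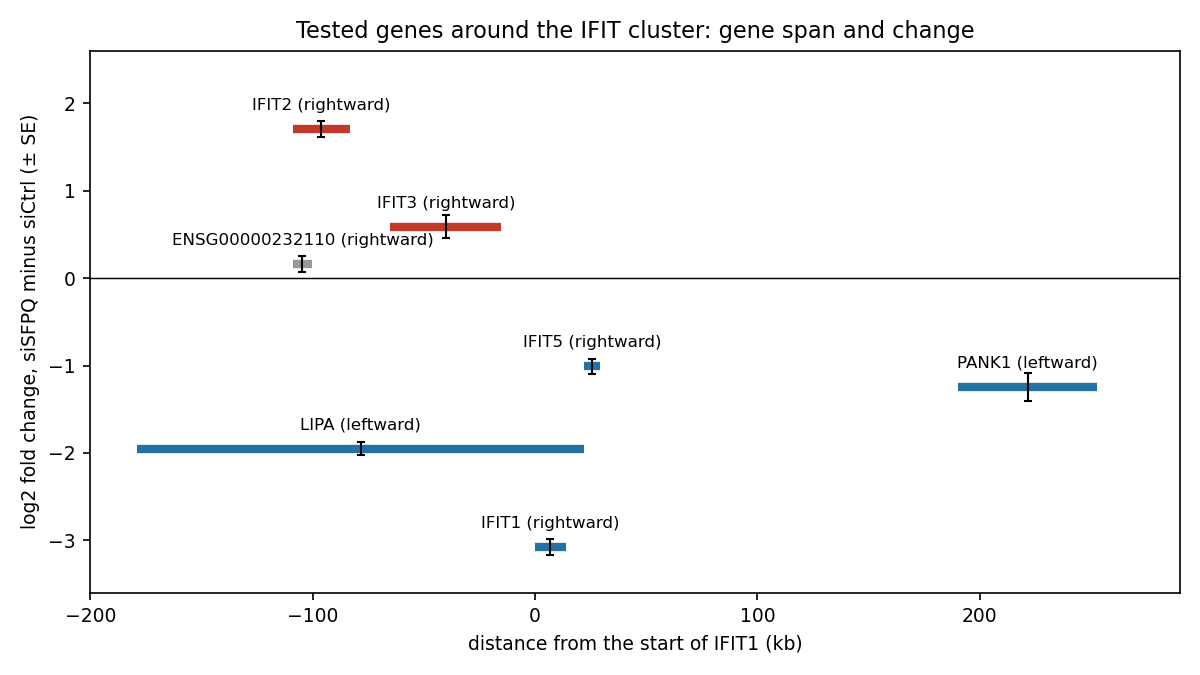
Genes tested within 200 kb of the IFIT1 start: each bar spans the gene, its height is the log2 fold change of siSFPQ minus siCtrl with the SE, and labels give the direction of transcription. IFIT2 (1.70) and IFIT3 (0.59) lie above 0, and IFIT1 (-3.08), IFIT5 (-1.01), LIPA (-1.95) and PANK1 (-1.24) below it; ENSG00000232110, which shares exon sequence with IFIT2, was not called.

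Among the sensors, 4 of 10 could be tested: 2 rose after SFPQ knockdown and 1 fell. Of all genes 34.7% were called higher and 35.8% lower, and so few sensors say little about them as a class. STING1, the adaptor of cytosolic DNA sensing on the endoplasmic reticulum, went from 4.65, 2.35 and 3.50 CPM to 18.9, 11.7 and 21.2 with siSFPQ-2 and 24.6, 23.7 and 24 with siSFPQ-3, and rose by 2.55 in log2 terms (SE 0.22, adjusted p = 7.21e-11). CGAS, the DNA sensor that signals to STING1, could not be tested: it had 7 reads over the siCtrl libraries and 6 over the siSFPQ libraries, a ratio of 0.644 after scaling (95% counting interval 0.179 to 2.24). EIF2AK2 encodes PKR, the kinase that halts translation on double-stranded RNA, and went from 261, 261 and 233 CPM to 181, 187 and 170 and to 171, 171 and 151, with no overlap between groups, and fell by 0.55 (SE 0.08, adjusted p = 3.54e-07).

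IFIH1 rose by 0.66 on the log2 scale in the mean of both siRNAs (SE 0.26, adjusted p = 0.0264). Its siCtrl libraries had 1.79, 2.45 and 3.72 CPM, those of siSFPQ-2 7.16, 5.46 and 3.78 and those of siSFPQ-3 4.18, 3.68 and 2.17, so siSFPQ-3 overlapped the control. With siSFPQ-3 alone IFIH1 was not called (adjusted p = 0.377), and the call was lost when any of 5 libraries was left out, with a log2 fold change of 0.43 and an adjusted p of 0.185 without siCtrl replicate 1. RIGI was not called (0.36, SE 0.44, adjusted p = 0.467), and its 95% interval, -0.53 to 1.26, leaves room for changes of either sign. RIGI shares 43.2% of its exonic bases with another gene of the files on the same strand, so its level is uncertain.

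The oligoadenylate synthetases, which make the messenger that switches on RNase L, were almost silent in every group. OAS1 and OAS2 had 0 reads in all 24 libraries, as did the effector RSAD2, which allows a level of up to 0.012 CPM over the series (3 counts over all libraries; counting error only). OAS3 had 2 reads, both in 1 ASO-NEAT1-1473 library. OASL, the member of that family without synthetase activity, had 2 reads over the siCtrl libraries and 18 over the siSFPQ libraries, and all 6 siSFPQ libraries had at least 1; the ratio was 6.76 with a counting interval of 1.62 to 60.1. TLR3, the endosomal sensor of double-stranded RNA, had 8 and 10 reads, a ratio of 0.939 (0.334 to 2.74).

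Of the 4 transcription factors, 3 rose, beside 34.7% of all genes. IRF1, which is induced by interferon-gamma and acts on promoters without STAT proteins, went from 2.14, 1.74 and 2.11 CPM to 12.4, 11.7 and 9.55 with siSFPQ-2 and 11.8, 12 and 11.6 with siSFPQ-3, and rose by 2.50 in log2 terms (SE 0.18, adjusted p = 1.66e-12). All 6 knockdown libraries were above 9 CPM and all 3 controls below 3. Exons of IRF1 share 22.9% of their bases with antisense genes. STAT2 went from 39.0, 38.1 and 47.1 CPM to 75.2, 83.1 and 90.2 and to 73.6, 52.8 and 70.2, again without overlap, and rose by 0.83 (SE 0.11, adjusted p = 1.16e-07). IRF7, the factor that amplifies interferon production, was called higher (2.67, SE 0.61, adjusted p = 3.26e-04) from very few reads: 5 over the siCtrl libraries, with none in 1 of them, and 0.358 to 1.36 CPM in the siSFPQ libraries. Only through the siSFPQ libraries did IRF7 pass the filter on low counts, which favoured a rise. IRF9, the DNA-binding partner of STAT2, was not called (0.28, SE 0.29, adjusted p = 0.393), and 42.2% of its exonic bases lie in another gene of the files.

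All 3 IFITM genes, whose products sit in membranes and hinder the entry of viruses, rose, beside 34.7% of all genes. IFITM1 went from 5.90, 5.93 and 4.52 CPM to 19.3, 21.1 and 28.7 with siSFPQ-2 and 30.9, 30.6 and 31.9 with siSFPQ-3, and rose by 2.31 in log2 terms (SE 0.19, adjusted p = 3.36e-11). IFITM2 rose by 1.23 (SE 0.17, adjusted p = 2.86e-07) and IFITM3 by 0.75 (SE 0.13, adjusted p = 1.55e-05), with 36.5 to 46.2 CPM of IFITM3 in the siSFPQ libraries against 21.8 to 25.6 in siCtrl. The siSFPQ and siCtrl libraries did not overlap for any of the 3, and the share of all genes without such overlap is not given. These genes are close in sequence and adjacent on chromosome 11, and 31.6% of the exonic bases of IFITM1 and 16.3% of those of IFITM3 are shared with other annotated genes, so how reads were divided among them is uncertain.

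Among the 14 other effectors 8 could be tested, of which 5 rose and 2 fell, beside 34.7% and 35.8% of all genes. ISG20, an RNA exonuclease, went from 0.447, 0.307 and 0.656 CPM to 4.73, 2.48 and 5.98 with siSFPQ-2 and 4.77, 5.52 and 7.83 with siSFPQ-3, and rose by 3.41 in log2 terms (SE 0.34, adjusted p = 8.08e-10). SAMD9, an antiviral factor that restrains poxviruses, went from 0.536, 1.43 and 0.437 CPM to 10.7, 12.6 and 8.18 and to 5.13, 7.98 and 1.20, and rose by 3.18 (SE 0.50, adjusted p = 5.52e-06). One siSFPQ-3 library thus fell within the control range for SAMD9, whereas ISG20 showed no overlap. ISG20 passed the filter on low counts only through the siSFPQ libraries, so its rise and lack of overlap were favoured by that selection.

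IFI6, a small membrane protein of mitochondria, rose by 2.59 (SE 0.24, adjusted p = 3.11e-10), with 1.25 to 1.53 CPM in siCtrl and 4.72 to 13.5 in the siSFPQ libraries; 23.1% of its exonic bases are shared with LINC02574 on the same strand. IFI27 rose by 2.53 (SE 0.51, adjusted p = 7.53e-05), from 10 reads over the siCtrl libraries. That gene also passed the filter on low counts only through the siSFPQ libraries, which favoured a rise. BST2, also called tetherin, which holds budding virus at the cell surface, rose by 1.30 (SE 0.35, adjusted p = 0.00172). Its siCtrl values were 2.06, 0.613 and 0.874 CPM and its siSFPQ values 1.89 to 4.35 CPM, so the highest control lay inside the knockdown range.

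MX1, a GTPase that traps viral nucleocapsids, fell by 1.12 (SE 0.34, adjusted p = 0.0043) at a low level, from 1.25, 2.04 and 1.46 CPM to 0.315 to 1.10. IFI44L went from 385, 330 and 413 CPM to 227, 219 and 248 with siSFPQ-2 and 279, 332 and 305 with siSFPQ-3, where 1 library reached above the lowest control, and fell by 0.50 (SE 0.11, adjusted p = 4.14e-04). IFI44, its neighbour on chromosome 1, was not called (0.23, SE 0.20, adjusted p = 0.312), with 29.2 to 41.3 CPM in siCtrl and 35.2 to 51.9 in the siSFPQ libraries. IFI44L and IFI44 are related genes near each other, like the IFIT genes, and ran from 78619902 to 78646145 and from 78649796 to 78664078.

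The ISG15 and ADP-ribose pathway had 6 testable genes of 8, and 4 rose, beside 34.7% of all genes. ISG15 is a small protein that is joined to others like ubiquitin, by the enzymes UBA7 and HERC5 among others, and removed by USP18. ISG15 itself was not called (-0.41, SE 0.26, adjusted p = 0.162), with 2.23, 2.15 and 2.84 CPM in siCtrl and 0.496 to 2.31 in the siSFPQ libraries. UBA7 was not called either (-0.31, SE 0.31, adjusted p = 0.366). HERC6, a ligase-like relative of HERC5, went from 6.25, 5.93 and 4.44 CPM to 55.6, 56.5 and 48.8 with siSFPQ-2 and 31.6, 41.4 and 28.1 with siSFPQ-3, and rose by 2.95 (SE 0.21, adjusted p = 4.19e-12).

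HERC5 was too low for the test, with 6 reads over the siCtrl libraries and 39 over the siSFPQ libraries, a ratio of 4.88 (counting interval 2.05 to 14.1). DESeq2, which filters differently, called it higher (adjusted p = 0.00939), as did edgeR without the filter (adjusted p = 0.00436). USP18 had 12 and 5 reads, a ratio of 0.313 (0.0863 to 0.954). Among the other effectors under the filter, SAMD9L, the neighbour and relative of SAMD9, had 1 read over the siCtrl and 12 over the siSFPQ libraries, a ratio of 9.01 (1.33 to 385). IFI35 had 5 and 11 reads (1.65, 0.529 to 6.06), MX2 3 and 2, XAF1 2 and 0, and CMPK2 1 and 1.

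DTX3L, PARP9 and PARP14, which attach or oversee ADP-ribose and ubiquitin marks and lie together on chromosome 3, rose together. DTX3L had 24.5, 22.6 and 18.3 CPM in siCtrl and 35.5 to 49.9 in the siSFPQ libraries, and rose by 1.01 (SE 0.15, adjusted p = 2.06e-06). PARP14 had 62.7, 56.0 and 58.6 CPM against 91.6 to 131, and rose by 0.85 (SE 0.18, adjusted p = 3.16e-04). For both genes the groups did not overlap. PARP9 rose by 0.54 (SE 0.18, adjusted p = 0.00926). PARP9 overlapped between groups, with 17.3 to 21.9 CPM in siCtrl and 20.8 to 34.1 in the siSFPQ libraries, and its call was lost without siCtrl replicate 3 (adjusted p = 0.0662).

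The siRNAs against SFPQ differed from each other in 3 of the 29 genes: HERC6 was higher with siSFPQ-2 than with siSFPQ-3 (log2 difference 0.67, SE 0.20, adjusted p = 0.022), and IFI6 (-0.99, SE 0.23, adjusted p = 0.00332) and IFI44L (-0.40, SE 0.13, adjusted p = 0.0486) were lower. Of all genes, 6.06% were higher and 8.61% lower in that comparison. For these 3 genes both siRNAs moved the level the same way from siCtrl, and only the size differed. The HERC6 call was lost without siSFPQ-2 replicate 1 (adjusted p = 0.0663) or replicate 2 (0.0689), or without siSFPQ-3 replicate 1 (0.0884) or replicate 3 (0.118), and the IFI44L call was lost when any of 5 of the 6 libraries was left out (adjusted p from 0.0859 to 0.168).

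Interferon genes themselves were looked for among 22 type I, II and III interferon genes, and 20 had no read in any of the 24 libraries. IFNA5 had 1 read, in siSFPQ-2. IFNG, the gene of interferon-gamma, had 5 reads in all: 1 in siCtrl, 0 in siSFPQ-2, 1 in siSFPQ-3, 1 in siNONO-3 and 2 in siNONO-4. At this depth no interferon mRNA could be compared between groups, and 72 h was the only time sampled.

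Receptors and signalling proteins were well covered, with 16 of 16 genes tested, 12 called higher and 4 lower after SFPQ knockdown, beside 34.7% and 35.8% of all genes. Of those that rose, IL10RB, a receptor subunit shared with type III interferons, changed by 1.25 (SE 0.42, adjusted p = 0.00961) with 38.3% of its exonic bases shared with a readthrough gene, the feedback inhibitor SOCS3 by 1.02 (SE 0.23, adjusted p = 3.53e-04), the phosphatase PTPN1 by 0.88 (SE 0.09, adjusted p = 1.07e-09) and the type III receptor IFNLR1 by 0.75 (SE 0.15, adjusted p = 7.38e-05). The kinase TYK2, which sits on the type I receptor, had 18.6 CPM in siCtrl and 13 and 11.9 in the siSFPQ groups, and fell by 0.59 (SE 0.11, adjusted p = 1.67e-05). The list's median was 0.34, against -0.02 for all genes.

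Of 35 adaptors and kinases downstream of the sensors, 26 were tested, with 13 called higher and 8 lower against the same 34.7% and 35.8% of all genes, so the share that fell was near the background. RNF125, a ubiquitin ligase that marks RIGI and other sensors for degradation, had 1.96 CPM in siCtrl, 19.2 in siSFPQ-2 and 25.1 in siSFPQ-3 and rose by 3.50 (SE 0.21, adjusted p = 3.02e-14). The kinase IKBKE rose by 1.58 (SE 0.38, adjusted p = 6.38e-04), TICAM1, the adaptor of TLR3, by 1.47 (SE 0.18, adjusted p = 4.69e-08) and TRAF6 by 0.96 (SE 0.10, adjusted p = 3.32e-09). IRAK1 fell by 1.12 (SE 0.09, adjusted p = 1.76e-11), TRAF3 by 1.00 (SE 0.09, adjusted p = 3.73e-11) and G3BP1, a stress granule protein, by 0.70 (SE 0.07, adjusted p = 1.27e-09).

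A further list of 76 interferon-stimulated genes showed 28 called higher and 15 lower of 54 tested (34.7% and 35.8% over all genes), with a median of 0.34. SLFN5, of the Schlafen family, went from 5.21 ± 0.979 CPM to 315 ± 40.0 and 190 ± 31.4 (SD, n = 3 each), and rose by 5.57 (SE 0.29, adjusted p = 3.83e-12). TDRD7, a protein with tudor domains, rose by 3.43 (SE 0.15, adjusted p = 3.22e-17) to 95.1 and 90.2 CPM, the guanylate-binding protein GBP3 by 2.28 (SE 0.29, adjusted p = 7.67e-08) and the helicase DDX60 by 2.15 (SE 0.22, adjusted p = 1.41e-09). EPSTI1 fell by 1.55 (SE 0.08, adjusted p = 6.90e-16), GBP1 by 1.05 (SE 0.29, adjusted p = 0.00208), and GBP5 fell from 7.64 CPM to 2.86 and 3.06 (adjusted p = 2.94e-06). As in the IFIT family, members of the guanylate-binding protein family thus lay on both sides.

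NONO knockdown left most of these genes uncalled. In the mean of both siRNAs IRF1 was the 1 gene called higher and BST2 the 1 gene called lower of 29, against 7.47% and 9.96% of all genes tested. IRF1 rose by 0.81 in log2 terms (SE 0.19, adjusted p = 0.0039), to 4.15, 2.97 and 2.52 CPM with siNONO-3 and 4.27, 3.22 and 4.10 with siNONO-4, all above the 3 controls (1.74 to 2.14). Such separation does not set IRF1 apart. IFIT3, not called in this fit, had 34.2 to 40.8 CPM in the siNONO libraries and 25.6 to 32.1 in siCtrl. BST2 went from 2.06, 0.613 and 0.874 CPM to 0.592, 0.318 and 0.0932 with siNONO-3 and 1.04, 0.536 and 0.410 with siNONO-4, and fell by 1.30 (SE 0.43, adjusted p = 0.036). The siNONO-4 values overlapped the control, and without siCtrl replicate 1, the highest of the 3, the change was -0.67 with an adjusted p of 0.435. The call was also lost without siNONO-3 replicate 2 (adjusted p = 0.0589) or replicate 3 (0.0987) and without siNONO-4 replicate 2 (0.0634) or replicate 3 (0.076).

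Replicate numbers pair the NONO and siCtrl libraries, and with the number as a block 3 genes were called higher and 2 lower, against 13% and 15.8% of all genes. The added calls were IFIT3 (0.33, SE 0.10, adjusted p = 0.0135), IFIH1 (0.65, SE 0.23, adjusted p = 0.0336) and IFI44L (-0.19, SE 0.07, adjusted p = 0.0358), and IRF1 and BST2 were called again. IFIT1 stood at 574 to 719 CPM in the 6 siNONO libraries. Without the block its log2 fold change was 0.02 (SE 0.10, 95% interval -0.18 to 0.21), and that of IFIT5 was -0.03 (-0.21 to 0.15). With the block IFIT1 changed by 0.016 (SE 0.0622) and IFIT5 by -0.035 (SE 0.0526).

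The siRNAs against NONO differed from each other. With siNONO-3 alone 1 gene rose and 6 fell, against 9.02% and 10.9% of all genes, and with siNONO-4 alone 4 rose and none fell, against 5.1% and 5.94%. With the replicate block the counts were 2 and 8 for siNONO-3, against 14.8% and 16.1% of all genes, and 7 and 0 for siNONO-4, against 9.78% and 11.7%. DESeq2 also gave 0 lower for siNONO-4 and did not call IRF1 for siNONO-3. With siNONO-4, 9 of the 29 genes had an unadjusted p under 0.05 in edgeR, as did 24.6% of all genes. With siNONO-3 it was 9 of the 29, beside 32% of all genes. NONO RNA itself was not called different between them (69.2 ± 9.30 and 70.1 ± 5.06 CPM, log2 difference -0.02, 95% interval -0.20 to 0.17).

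Tested directly, siNONO-3 was lower than siNONO-4 for 6 genes and higher for none, against 5.31% and 4.71% of all genes. DESeq2 called 7 lower and 0 higher, and 11 of the 29 had an unadjusted p under 0.05 in edgeR, as did 23.3% of all genes. With the replicate block 9 were lower and 0 higher, against 9.62% and 9.7% of all genes; the added calls were IFI6 (-0.92, SE 0.29, adjusted p = 0.019), IFI44L (-0.38, SE 0.08, adjusted p = 8.18e-04) and PARP9 (-0.52, SE 0.13, adjusted p = 0.00259). The median of the 29 genes was -0.45 and that of all genes -0.00, and 26 of the 29 had a negative value. IFITM2 had 4.54, 4.03 and 2.98 CPM with siNONO-3 and 13.1, 10.7 and 9.44 with siNONO-4, a log2 difference of -1.53 (SE 0.21, adjusted p = 1.56e-05). IFITM3 had 15.5, 13.6 and 15.5 against 52.9, 33.2 and 32.1, a difference of -1.41 (SE 0.16, adjusted p = 7.01e-07). The siCtrl libraries lay between the 2 siNONO groups for IFITM3, at 21.8 to 25.6 CPM.

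IFIT2 had 196, 172 and 202 CPM with siNONO-3 and 295, 290 and 360 with siNONO-4, a difference of -0.73 (SE 0.10, adjusted p = 1.41e-05), again on either side of siCtrl. Against siCtrl, these 3 genes were each called lower with siNONO-3 and higher with siNONO-4, and their means after NONO knockdown (IFIT2 -0.04, IFITM2 -0.18, IFITM3 -0.01) average opposite calls. ISG20 differed by -2.15 (SE 0.50, adjusted p = 0.0054), between 0.186 to 0.318 and 0.965 to 1.54 CPM. IFI44 (-0.81, SE 0.24, adjusted p = 0.0347) and DTX3L (-0.62, SE 0.18, adjusted p = 0.028) were the others. The IFI44 call was lost when any of 4 of the 6 libraries was left out (adjusted p from 0.0596 to 0.165), and so was the DTX3L call (0.0504 to 0.169). The immune and stromal marker sum also stood apart in these groups, with COL1A1 at 17.6 ± 1.97 and 32.9 ± 5.02 CPM (SD, n = 3 each), and its part in these differences was not tested.

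**Figure D5:**
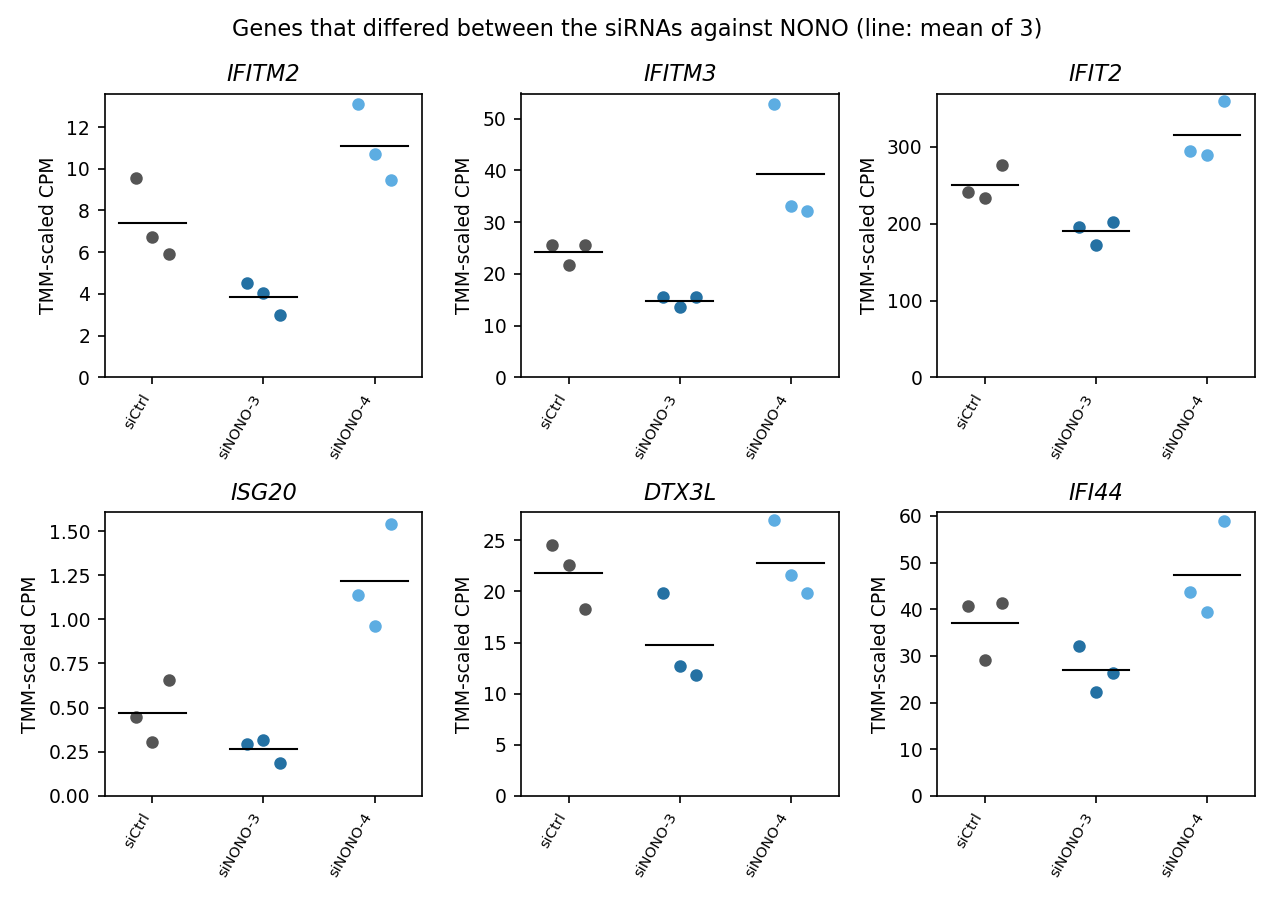
TMM-scaled CPM of the 6 genes called different between siNONO-3 and siNONO-4, with points for the 3 libraries of siCtrl, siNONO-3 and siNONO-4 and a line at their mean. For IFITM2, IFITM3, IFIT2, ISG20 and IFI44 no siNONO-3 library reaches the lowest siNONO-4 library. For IFITM3 and IFIT2 the siCtrl libraries lie in between. The share of all genes without such overlap is not given.

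Among the other lists, 1 of 16 receptor and signalling genes fell after NONO knockdown, 2 of 26 adaptors and kinases rose and 1 fell, and 9 rose of 54 further interferon-stimulated genes, beside 7.47% higher and 9.96% lower over all genes. TRIM22, a ubiquitin ligase of the tripartite motif family, had 4.89 ± 0.432 CPM in siCtrl, 39.2 ± 8.28 in siNONO-3 and 17.9 ± 2.78 in siNONO-4 (SD, n = 3 each), a log2 rise of 2.43 (SE 0.21, edgeR adjusted p = 8.89e-09). DDX60 rose by 0.83 (SE 0.23, adjusted p = 0.0104), TRIM21 by 0.78 (SE 0.19, adjusted p = 0.00478), PNPT1 by 0.40 (SE 0.08, adjusted p = 6.13e-04) and the kinase TBK1 by 0.49 (SE 0.09, adjusted p = 1.68e-04).

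The direct comparison of the targets, which does not involve siCtrl, called 18 genes higher and 6 lower after SFPQ than after NONO knockdown, against 37% and 38.4% of all genes. The median was 0.77, beside -0.03 for all genes. IFI27, ISG20 and IRF7 are in both the 18 and the median. They passed the filter on low counts only through the siSFPQ libraries, which favoured a higher value there. ISG15 was among the lower genes (-0.58, SE 0.22, adjusted p = 0.0182), although it was called with neither target against siCtrl, and was not called without siNONO-3 replicate 1 (adjusted p = 0.062). MX1 was among them too (-0.85, SE 0.30, adjusted p = 0.0135), but not by DESeq2 (adjusted p = 0.0501) or without siSFPQ-2 replicate 3 (0.0729). BST2 stood 2.61 higher (SE 0.34, adjusted p = 9.00e-08) and IFIT1 3.09 lower (SE 0.09, adjusted p = 3.19e-21). IFIH1 was not called (-0.00, SE 0.20, 95% interval -0.40 to 0.40), nor was the difference called for IFI44, IRF9, RIGI or UBA7, though IFI44 was called with the replicate block (adjusted p = 0.00216) and in a fit of the compared groups alone (0.0154). The smallest called rise, that of IFIT3 (0.27, SE 0.11, adjusted p = 0.024), was lost when any of 4 libraries was left out (siSFPQ-2 replicate 3, siSFPQ-3 replicate 1 or 3, or siNONO-3 replicate 3; adjusted p from 0.0533 to 0.178).

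In the libraries labelled ASO-NEAT1-1047 and ASO-NEAT1-1473, none of the 29 genes was called by edgeR, with 0 under an unadjusted p of 0.05, and none by DESeq2. Over all genes 0% were called higher and 0% lower as well. Log2 fold changes ran from -0.29 to 1.17, the highest being IRF7 at 1.17 (95% interval -0.23 to 2.57) from a few reads. For the abundant genes the intervals were narrow: IFIT1 had -0.12 (-0.31 to 0.08) and IFIT2 -0.05 (-0.22 to 0.13). IFIT1 had 563, 635 and 712 CPM in ASO-Ctrl, 567, 577 and 667 in ASO-NEAT1-1047 and 509, 536 and 665 in ASO-NEAT1-1473, and the groups overlapped. Between the ASOs, edgeR and DESeq2 again called none of the 29, with 0 under an unadjusted p of 0.05, and called 0% of all genes higher and 0% lower. Since NEAT1 RNA, as counted in poly(A)-selected RNA, was not called lower with either ASO, these values are given by label. Whether the ASOs lowered NEAT1 transcripts that such counts miss was not tested.

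The control groups of the arms gave the level of these genes under either kind of oligonucleotide. ASO-Ctrl minus siCtrl was called for none of the 29 genes by edgeR or DESeq2, with 1, IFI44L (-0.29, adjusted p = 0.573), under an unadjusted p of 0.05, and for 0.12% (higher) and 0.334% (lower) of all genes. IFIT1 stood at 647 ± 47.1 CPM in siCtrl and 637 ± 74.3 in ASO-Ctrl (SD, n = 3 each), a log2 difference of -0.02 (95% interval -0.25 to 0.20). The high control level of IFIT1 was found with both.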

How the data were processed

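Poly(A) RNA sequencing libraries of 24 samples in 8 groups of 3 were used. The authors deposited raw read counts per gene for each library, with coordinates and exon lengths on hg38. Cutadapt 4.2, STAR 2.7.5a, featureCounts and Subread 2.0.3, and DESeq2 1.38.1 are named in the submitters' processing notes, while the sources used here do not give the strand setting, how multi-mapping reads were handled, or the annotation release. Those settings bear on genes that overlap or resemble one another, such as the IFITM genes.

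The counts of all 24 libraries were fitted together with the quasi-likelihood method of edgeR 4.0.16 (limma 3.58.1, R 4.3.3), with TMM factors, 1 term per group, robust estimation and a filter that asked for 0.991 CPM in at least 3 libraries, which left 15869 genes of 60605. Benjamini-Hochberg adjustment ran over all genes tested in each comparison, and a gene was called at an adjusted p under 0.05. For SFPQ, NONO and NEAT1 the mean of the 2 reagents was compared with the control group of the same arm, and the reagents were also compared with each other. The script was also run on simulated counts in which few genes changed, in equal numbers up and down. That run does not cover a comparison in which most genes are called, as after SFPQ knockdown. Counting intervals and floors cover counting error only, at 95%, and a count of 0 was read as up to 3 counts.

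The members, the pathway and marker lists and the tests were chosen with earlier results of these data known. In the pathway lists, genes are named that were called with both reagents, at most 4 in each direction by size of change. Genes under the filter are named with their counts; the ratios with counting intervals, the marker genes PECAM1 and COL1A1 and the neighbours of the IFIT genes were added after their values were seen.

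Replicate numbers come from the sample titles. Deviations from the group means correlated between libraries of the same number in all 9 pairs among the siNONO and siCtrl groups (r from 0.114 to 0.329 across genes) and in all 9 pairs of the ASO arm (0.131 to 0.428), each over 0.1, so the numbers were taken to pair those libraries. Among the siSFPQ and siCtrl groups 5 of 9 pairs were over 0.1. No 2 libraries agreed within sampling noise. Alternatives were RLE and upper quartile factors, no filter and a filter of 1 CPM in 3 libraries, the replicate block, fits on the compared groups alone, DESeq2 1.42.0 and leaving out each library. Promoter sequences are from RefSeq (GRCh38.p14), and 10 members matched no window there.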

Additional observations from a re-analysis of the deposited data

Results flagged for a closer look

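In 9 cases a gene of the list responded differently to 2 siRNAs with the same target, by a test of the difference itself. Between siSFPQ-2 and siSFPQ-3 the log2 difference was 0.668 for HERC6, -0.990 for IFI6 and -0.398 for IFI44L, and all 3 moved the same way from siCtrl with either siRNA. In that comparison 3.45% of the list were higher and 6.9% lower, below the 6.06% and 8.61% of all genes. Between siNONO-3 and siNONO-4 the log2 difference was -0.728 for IFIT2, -1.530 for IFITM2, -1.409 for IFITM3, -2.151 for ISG20, -0.810 for IFI44 and -0.623 for DTX3L. Here 0% of the list were higher and 20.7% lower, beside 4.71% and 5.31% of all genes. The calls of HERC6, IFI44L, IFI44 and DTX3L were each lost in several fits that left out a single library. IFIT2, IFITM2 and IFITM3 were called in opposite directions against siCtrl. Groups of 3 libraries were too small to look for a single library far from the others.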

How the results depend on the processing

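After SFPQ knockdown the number of genes called ranged from 18 to 21 higher and was 5 lower under every alternative run, and for the 24 called genes 377 of 384 values kept their direction and call, with 7 losing the call (IFIH1 and PARP9) and 0 reversing. In the comparison of SFPQ with NONO knockdown 448 of 456 values did so. The counts after NONO knockdown were 1 higher and 1 lower; with the replicate block they were 3 and 2, with only the groups compared 2 and 0, and with single libraries left out 1 to 2 and 0 to 1. The count of genes higher with siSFPQ-2 than with siSFPQ-3 was 1; it was 2 with upper quartile factors, 3 without a filter, 5 with the replicate block, 2 with DESeq2 and 0 to 2 with single libraries left out. The count lower was 2; it was 1 with RLE factors, 1 with upper quartile factors and 1 to 2 with single libraries left out. The cause of these shifts was not tested, other than that fits on the groups compared, or without a library, hold fewer samples. The count of genes lower with siNONO-3 than with siNONO-4 was 6; it was 4 to 9 with single libraries left out and 9 with the replicate block. The block also gave 20 genes higher after SFPQ knockdown and 19 higher than after NONO knockdown, IFI44 being the added gene in both. No gene of the list was called in the ASO-NEAT1 libraries under any alternative run. Depth limits the 14 genes under the filter, 5 of which had fewer than 4 reads in all libraries. A count of 0 in all libraries allows a level of up to 0.012 CPM over the series.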
